A study of Mus musculus with 2 samples.

Results

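The interleukin-6 (IL-6) family of ligands and receptors was followed through the cells of the fracture callus, the tissue that bridges a broken bone while it heals. Its 10 members were found by gene symbol, and each was 1 of the 32285 genes measured in both libraries. They comprised 5 ligands (Il6, Il11, Lif, Osm and Clcf1) and 5 receptors (Il6st, Il6ra, Il11ra1, Lifr and Osmr). Calluses were obtained from wild-type (C57BL/6J) mice after femoral fracture, dissociated by enzyme digestion and sequenced as 2 single-cell libraries, MGJ and MGJ2, with the 10x Genomics 3′ kit. Both libraries share genotype and fracture model. The study collected calluses from 5 mice at 10 days and from 5 mice at 20 days post-fracture (dpf), but the labels do not say which library was taken on which day or which cell came from which mouse. The animals of the study were male and aged 12 weeks. Each library was therefore described on its own, a difference between the 2 libraries was not read as a change with time, and no value below has an error between animals.

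The ligands of this family signal through receptors that share the subunit gp130, which is encoded by Il6st. Each ligand first binds a partner that sets its specificity: Il6ra binds IL-6 and Il11ra1 binds IL-11, whereas Lifr and Osmr are themselves signalling subunits that pair with gp130 for leukemia inhibitory factor (Lif) and oncostatin M (Osm). The paired receptors activate Janus kinases and the transcription factor Stat3, which induces feedback inhibitors such as Socs3. In bone, the family is known for acting on osteoblasts and chondrocytes and for promoting osteoclast formation through stromal cells.

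Of the 10 members, 8 were matched in RefSeq promoter sequences (GRCm38.p6), and Osm and Clcf1 had no entry. The 250 bases before the start are shown for Il6, Il11 and Lif because these 3 ligands were the ones with their highest levels in stromal or vascular cells of MGJ, and because Il11 and Lif were both lower in the later chondrocyte stages of MGJ, described below. Capitals mark the AP-1 motif TGANTCA and the NF-kB motif, both searched on both strands with no overlap between them. The windows are chr5:30012864-30013113 (plus strand) for Il6, chr7:4778142-4778391 (minus strand) for the downstream of the 2 Il11 starts, and chr11:4257318-4257567 (plus strand) for Lif, each written 5′ to 3′ on the strand of its gene.

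Il6: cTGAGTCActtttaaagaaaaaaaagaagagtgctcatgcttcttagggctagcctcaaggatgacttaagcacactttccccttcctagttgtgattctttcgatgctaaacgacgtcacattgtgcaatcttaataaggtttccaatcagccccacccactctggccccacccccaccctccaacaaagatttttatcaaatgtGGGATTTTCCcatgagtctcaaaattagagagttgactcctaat
Il11: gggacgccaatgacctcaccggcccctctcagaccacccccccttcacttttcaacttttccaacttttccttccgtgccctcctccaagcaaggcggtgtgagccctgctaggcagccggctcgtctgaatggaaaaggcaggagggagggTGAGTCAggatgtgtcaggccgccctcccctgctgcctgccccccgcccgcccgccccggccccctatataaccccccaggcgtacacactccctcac
Lif: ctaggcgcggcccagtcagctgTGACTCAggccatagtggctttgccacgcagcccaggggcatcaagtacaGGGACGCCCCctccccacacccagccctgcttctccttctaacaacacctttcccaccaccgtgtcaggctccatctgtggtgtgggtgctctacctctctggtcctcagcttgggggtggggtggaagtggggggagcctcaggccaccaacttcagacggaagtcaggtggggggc

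The AP-1 motif lay 249 bases before the Il6 start, 98 bases before the Il11 start and 228 bases before the Lif start. Il6, Il11 and Lif were the 3 of 8 matched members that held it. Some members have more than 1 start, and it was found in 3 of their 11 windows, against 6.75% of 32851 promoter windows of the same length. The window of the other Il11 start did not hold it. The NF-kB motif was held by Il6 and Lif, at 44 and 178 bases before the start, in 2 of the 11 windows, and by 7.25% of all windows. The STAT motif TTCNNNGAA was found in none of the 11 windows of the 8 members and in 7.02% of all windows. A match describes these letters in this window and is not evidence of binding.

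After barcodes with fewer than 200 genes or with over 20% mitochondrial UMIs and likely doublets were removed, 12947 of 14295 barcodes were kept in MGJ and 7568 of 8009 in MGJ2, where the loading aimed at 5000 cells each. UMIs are counts of tagged RNA molecules, and the files held 135304426 of them in MGJ and 61130834 in MGJ2, with medians of 5026 and 4952 per barcode. The 2 libraries shared 19 cell barcodes. Cells were clustered without the members and named "X-like" from marker genes, which gave 19 classes of at least 50 cells in MGJ and 14 in MGJ2. Smaller classes have no level of their own and no place in the orders of classes below. The chondrocyte-like class held 2481 cells (19.2%) in MGJ and 133 cells (1.76%) in MGJ2. Levels are given as UMIs of a gene per 1000000 UMIs (CPM), and the cartilage collagen Col2a1 was measured at 55248 and 45164 CPM in these cells. As a measure of free RNA, Col2a1 in cells that should lack it was at 311 to 926 CPM in the MGJ classes outside the chondrocyte, osteoblast and tenocyte lines, and at 20.7 to 136 in the MGJ2 classes. The monocyte-like clusters held at most 1 of their own markers among their leading genes, and 1 granule-rich neutrophil-like cluster had as many mature neutrophil markers there as its own. Such ties with markers of other classes were also found in chondrocyte-like clusters, the one led by Col10a1 among them. A B cell-like cluster with 134 of the 213 B cell-like cells of MGJ had one too. Different clusters made up the monocyte-like and mature neutrophil-like classes in the 2 libraries. Of the monocyte-like cells, 1212 of 1303 in MGJ were in a cluster led by Arg1, Tarm1 and Flrt3, and 1409 of 1468 in MGJ2 were in one led by E230029C05Rik, Cd83 and Gm6377. Of the mature neutrophil-like cells, 1435 of 1517 in MGJ2 were in a cluster that held 78 of 4284 in MGJ. Il11 itself was a leading gene of 1 chondrocyte-like cluster and Lifr of another, which is a description of those clusters and not a test.

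The level of a gene was summed over the cells of a class, and ranges in brackets are 95% intervals for counting error only. Levels of different genes were not compared, since these counts come from the 3′ ends of transcripts. Comparing the stromal and vascular classes with the haematopoietic classes asks which compartment of the callus carried each member. The contrast set 4357 against 8196 cells in MGJ and 231 against 7152 cells in MGJ2, and a member was called higher or lower when its levels were at least 2-fold apart. In MGJ, 6 of 10 members were called higher in the stromal and vascular cells (Il6, Il11, Lif, Il6st, Il11ra1 and Osmr), against 36.0% of all genes tested, and 2 were called lower (Osm and Il6ra), against 18.9% of all genes. In MGJ2, 6 members were called higher (Il11, Lif, Il6st, Il11ra1, Lifr and Osmr), against 25.6% of all genes, and 3 were called lower (Osm, Clcf1 and Il6ra), against 26.5%. The libraries shared 5 of the higher calls (Il11, Lif, Il6st, Il11ra1 and Osmr) and 2 of the lower calls (Osm and Il6ra). The median ratio of the members was 3.87 in MGJ and 2.67 in MGJ2, and the median log2 ratio of all genes was 0.25 and -0.09. When every class weighed equally in place of every UMI, the count of lower members in MGJ fell to 1.

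**Figure D1:**
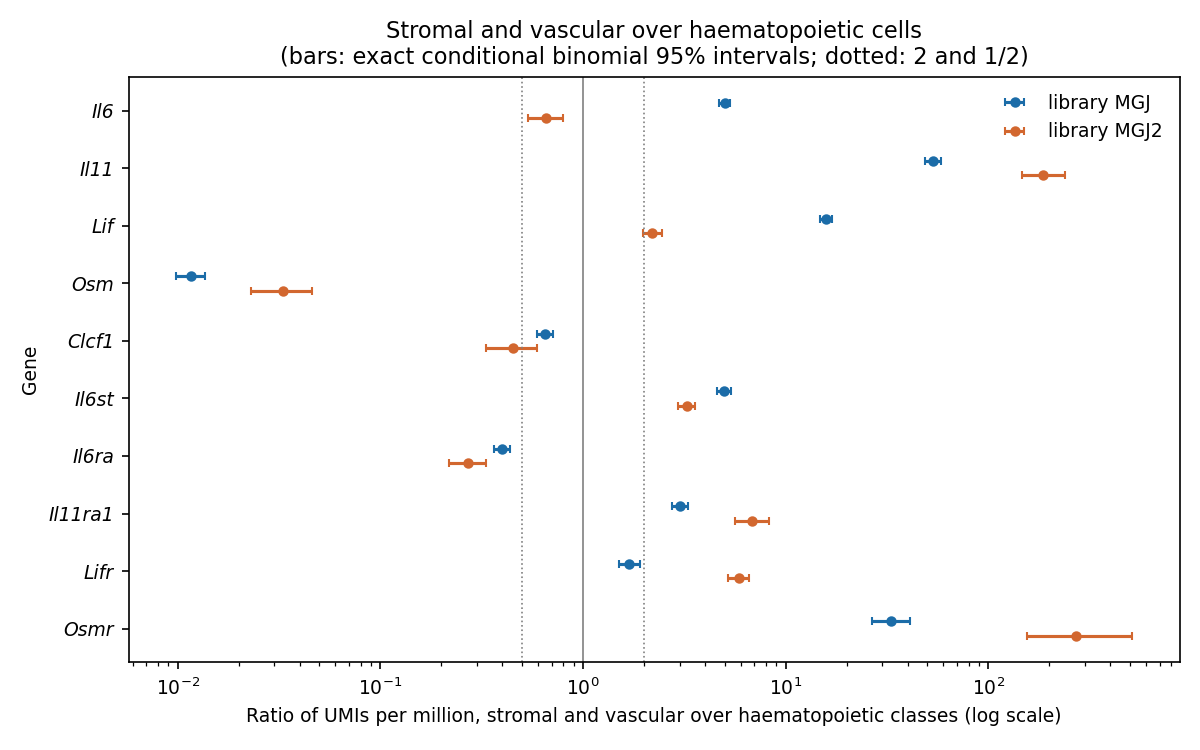
Ratio of each member's level in stromal and vascular cells to that in haematopoietic cells, on a log axis, with 95% counting intervals and 1 point for each library. Il11 and Osmr lie farthest to the stromal side (53.3 and 32.9 in MGJ, 186 and 270 in MGJ2), and Osm lies farthest to the haematopoietic side (0.0116 and 0.0330).

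Il11, a ligand known for its action on cartilage and bone, had the highest ratio of chondrocyte-like to all other cells among the 5 ligands, 7.57 (7.41–7.73) in MGJ and 34.0 (30.6–37.8) in MGJ2. The other cells include the unnamed cells, which held 6033 (9.79%) of the Il11 UMIs in MGJ and 319 (19.2%) in MGJ2. Over 7 alternatives the ratio ranged from 3.78 to 15.9 in MGJ and from 36.5 to 87.5 in MGJ2. In MGJ it fell below that of Lif when doublet calls were kept (3.87 against 4.03) and when each library was clustered alone (3.78 against 4.08). Chondrocyte-like cells carried it at 1002 CPM (993–1011) in MGJ and 313 CPM (296–332) in MGJ2. In MGJ the next classes were tenocyte-like cells at 132 CPM, mural-like cells at 124 CPM, osteoblast-like cells at 116 CPM and fibroblast-like cells at 98.4 CPM, and each of these did not differ from its neighbour beyond the counting interval. The chondrocyte-like level was 7.57 times (7.23–7.92) that of tenocyte-like cells in MGJ. In MGJ2 it was 19.4 times (9.38–48.3) that of endothelial-like cells, the next class of at least 50 cells, at 16.2 CPM. Smaller classes of MGJ2 were not ranked. Its 12 osteoblast-like cells held 77 Il11 UMIs in 331345 UMIs and its 8 tenocyte-like cells 20 in 145385, against 7 in 433205 in endothelial-like cells. Of all Il11 UMIs in the cells, 84.1% (51844 of 61616) lay in chondrocyte-like cells in MGJ and 70.0% (1163 of 1662) in MGJ2. Thinned shares were taken over cells of at least 2000 UMIs, each thinned to 2000 UMIs, and cells under this depth were left out. After thinning, 52.3% (50.3–54.3) of chondrocyte-like cells in MGJ had an Il11 UMI (74.9% unthinned, median depth 20847 UMIs). The share was 1.43% (0.0362–7.70) in pre-B cell-like cells (6.02% unthinned, median depth 4829 UMIs), which should not express the gene. In MGJ2 these shares were 22.7% (15.7–30.9) and 0.662% (0.0168–3.63), at median depths of 27420 and 8579 UMIs. If the other classes carried chondrocyte RNA in proportion to their Col2a1, Il11 would lie at 114 CPM in the osteoblast-like cells of MGJ, where 116 CPM was measured, and at 74.6 CPM in tenocyte-like cells, where 132 CPM was measured. The part of carried RNA in these 2 levels was not tested.

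Lif, which maintains progenitor states and acts on bone cells, followed Il11 in MGJ but not in MGJ2. In MGJ, 450 CPM (444–456) of Lif were found in chondrocyte-like cells, 173 CPM (147–203) in osteoblast-like cells, 118 CPM in mural-like cells and 97.5 CPM in fibroblast-like cells. Chondrocyte-like cells stood 2.60 times (2.21–3.07) above osteoblast-like cells and held 80.8% (23273 of 28811) of the Lif UMIs. They came second when each cell was named by its highest marker score. In MGJ2 the highest level was that of monocyte-like cells, at 124 CPM (118–130), followed by chondrocyte-like cells at 104 CPM (93.6–115), a ratio of 1.19 (1.07–1.34). Monocyte-like cells came second when each cell was named by its highest marker score. Monocyte-like cells held 62.9% and chondrocyte-like cells 14.4% of the 2667 Lif UMIs in MGJ2, where the chondrocyte-like class was small. In the monocyte-like cells of MGJ, Lif was at 35.6 CPM (31.7–39.8). After thinning, 17.6% of monocyte-like and 11.7% of chondrocyte-like cells in MGJ2 had a Lif UMI, against none of 151 pre-B cell-like cells (upper bound 2.41%).

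Il6, the family's best-known mediator of inflammation, was highest in other cells. In MGJ it was measured at 1704 CPM (1629–1782) in mural-like cells, the contractile cells around vessels, at 512 CPM (498–526) in fibroblast-like cells and at 252 CPM in endothelial-like cells. Mural-like cells stood 3.33 times (3.16–3.51) above fibroblast-like cells, but fibroblast-like cells, which are more numerous, held 40.7% of the Il6 UMIs, against 22.0% in chondrocyte-like and 16.1% in mural-like cells. Chondrocyte-like cells lay at 50.7 CPM (48.8–52.7), below all other cells together at 126 CPM. In MGJ2, where 0 fibroblast-like and 9 mural-like cells were found, Il6 was highest in basophil and mast cell-like cells at 636 CPM (583–692), 5.09 times (4.47–5.80) above plasmacytoid dendritic cell-like cells at 125 CPM. Chondrocyte-like cells lay at 1.89 CPM (0.758–3.89), on 7 UMIs. After thinning, 43.4% (34.5–52.7) of mural-like cells in MGJ and 44.2% (34.5–54.3) of basophil and mast cell-like cells in MGJ2 had an Il6 UMI, against none of 70 and none of 151 pre-B cell-like cells (upper bounds 5.13% and 2.41%). Among haematopoietic classes of at least 50 cells in MGJ, plasmacytoid dendritic cell-like cells were highest for Il6, at 168 CPM (148–190). The 6 basophil and mast cell-like cells of MGJ were too few to rank. They held 25 Il6 UMIs in 40244 UMIs, against 247 in 1470207 in plasmacytoid dendritic cell-like cells. The stromal over haematopoietic ratio of Il6 was 5.01 (4.70–5.34) in MGJ and 0.657 (0.536–0.797) in MGJ2. It ranged from 4.37 to 15.6 over 8 alternatives in MGJ. The MGJ2 ratio was 0.106 when each library was clustered alone and turned to 1.46 when every cell weighed equally. Of the 109 Il6 UMIs of the stromal and vascular cells of MGJ2, 83 lay in 19 reticular stromal-like cells.

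Osm, a ligand known as a product of activated myeloid cells, was the haematopoietic counterpart of Il11. In MGJ its level was 256 CPM (245–267) in mature neutrophil-like cells, 233 CPM (223–243) in monocyte-like cells, 160 CPM in macrophage-like cells and 124 CPM in granule-rich neutrophil-like cells. In MGJ2 it was 513 CPM (501–525) in monocyte-like cells, 435 CPM (413–458) in mature neutrophil-like cells and 370 CPM in basophil and mast cell-like cells. Chondrocyte-like cells were the lowest class in both libraries, at 1.10 CPM (0.834–1.43) and 2.69 CPM (1.29–4.96). The 2 leading classes lay close, with ratios of 1.10 (1.03–1.17) in MGJ and 1.18 (1.11–1.25) in MGJ2, and mature neutrophil-like cells came second in MGJ with Leiden resolution 0.5 or 2, when each cell was named by its highest marker score and when every cell weighed equally. In MGJ2, monocyte-like cells came second when every cell weighed equally. After thinning, 30.8% of mature neutrophil-like and 30.6% of monocyte-like cells in MGJ had an Osm UMI, against 0.328% of chondrocyte-like cells, at median depths of 1788.5, 6455 and 20847 UMIs. Mature neutrophil-like clusters of MGJ ranged from 235 to 296 CPM, and the 2 granule-rich clusters lay at 103 and 149 CPM.

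Clcf1, a ligand that signals through gp130 and Lifr together with the receptor Cntfr, was spread over both compartments in MGJ, and in MGJ2 it was called lower in the stromal and vascular cells. In MGJ the order opened with NK cell-like cells at 51.3 CPM, monocyte-like cells at 48.5 CPM, fibroblast-like cells at 45.5 CPM and B cell-like cells at 42.4 CPM, and these did not differ beyond their counting intervals. In MGJ2 NK cell-like cells at 84.1 CPM stood 1.59 times (1.30–1.96) above B cell-like cells at 52.8 CPM. Chondrocyte-like cells had 7.44 and 5.12 CPM, below the 9.50 and 19.0 CPM of pre-B cell-like cells. An annotated transcript overlaps Clcf1 on the same strand, so its counts can be shared.

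**Figure D2:**
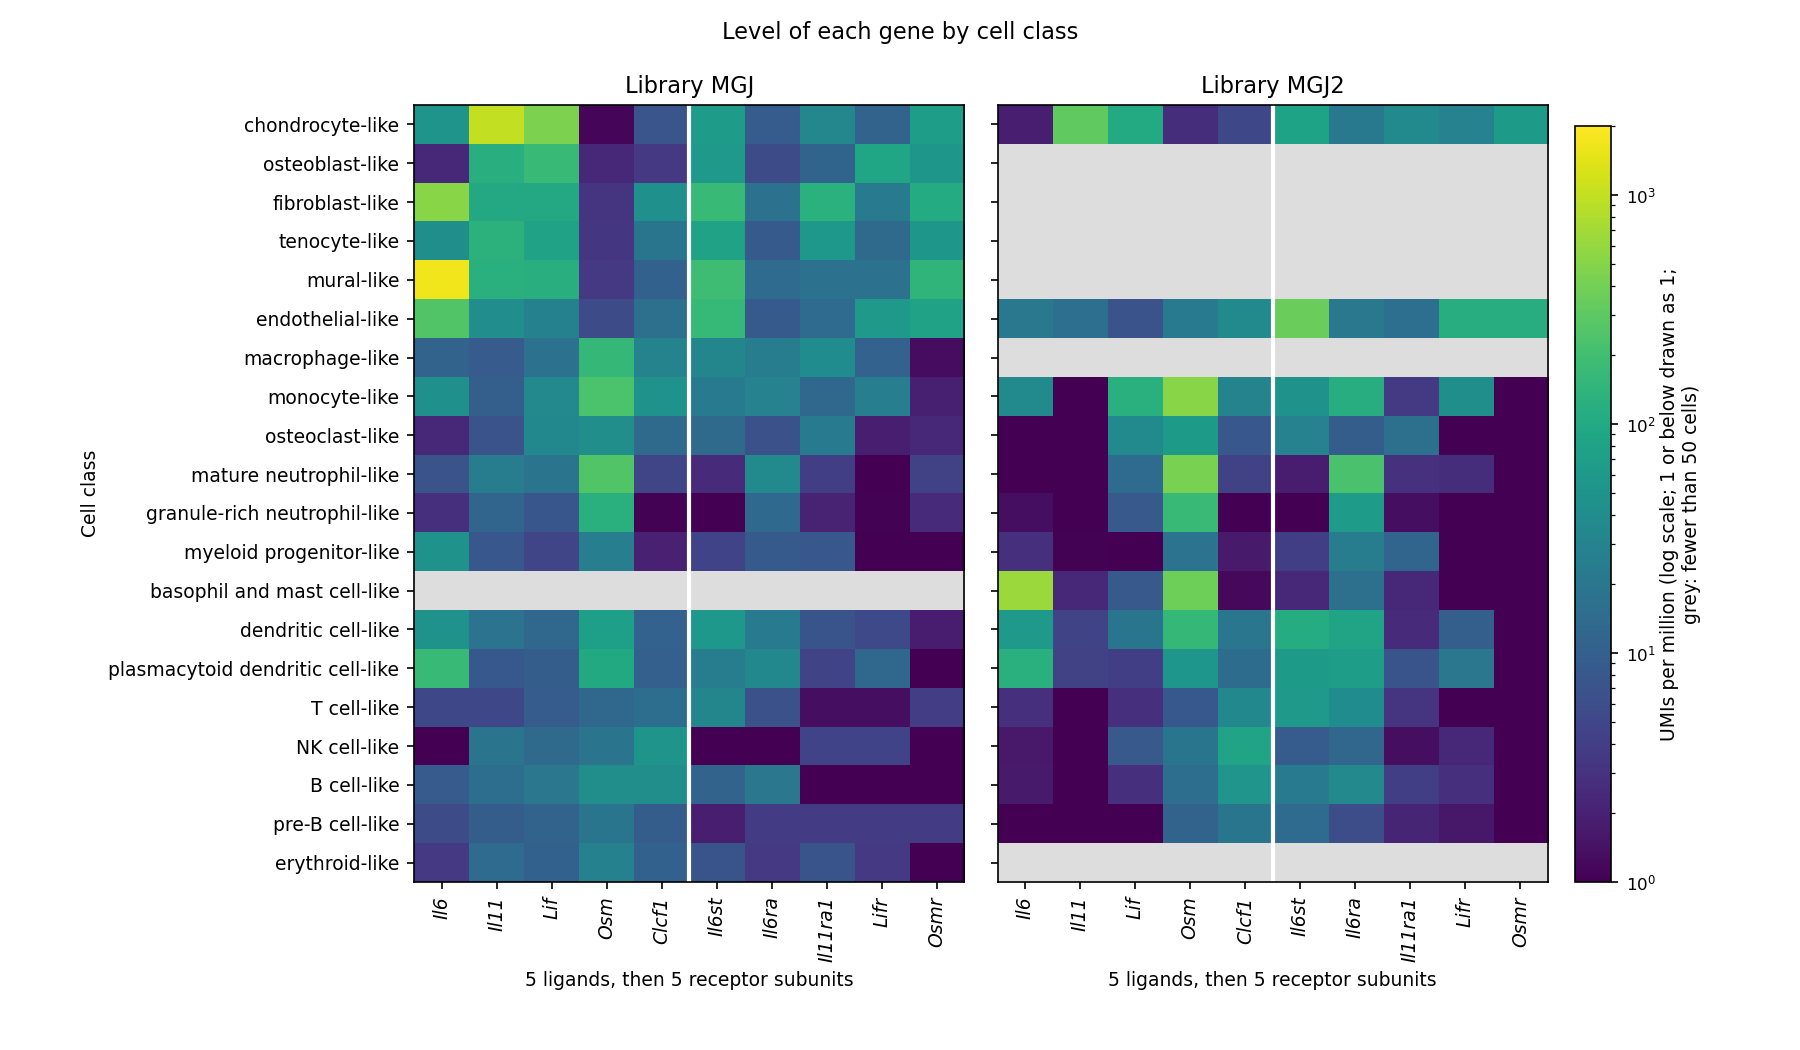
Level of the 10 members (columns) in each named class of at least 50 cells (rows), 1 panel for each library in CPM on a logarithmic colour scale, with levels of 1 or below drawn as 1 and classes of fewer than 50 cells in grey. Il11 and Lif are strongest in chondrocyte-like cells of MGJ (1002 and 450 CPM), Il6 in mural-like cells of MGJ (1704 CPM) and Osm in the neutrophil- and monocyte-like rows of both panels.

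Il6st, the shared subunit gp130, was measured at 188 CPM in mural-like, 169 CPM in fibroblast-like and 165 CPM in endothelial-like cells of MGJ, which did not differ beyond their counting intervals, and at 64.5 CPM in chondrocyte-like cells. In MGJ2 it was 353 CPM in endothelial-like cells, 112 CPM in dendritic cell-like cells and 81.9 CPM in chondrocyte-like cells. Endothelial-like cells stood 3.17 times (2.61–3.82) above the next class of at least 50 cells in MGJ2. Neutrophil-like classes lay near the bottom of both orders, with 2.47 CPM in MGJ and 1.80 CPM in MGJ2 in mature neutrophil-like cells. The stromal over haematopoietic ratio was 4.97 (4.58–5.39) in MGJ and 3.25 (2.95–3.58) in MGJ2.

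Osmr, the subunit that pairs with gp130 for oncostatin M, had the sharpest boundary among the receptors. In MGJ it was 146 CPM in mural-like, 107 CPM in fibroblast-like, 80.6 CPM in endothelial-like, 71.4 CPM in chondrocyte-like, 56.4 CPM in tenocyte-like and 55.8 CPM in osteoblast-like cells. Below these 6 classes no class of at least 50 cells exceeded 4.36 CPM, and the step from osteoblast-like to mature neutrophil-like cells was 12.8-fold (8.17–20.2). In MGJ2 it was 115 CPM in endothelial-like and 63.1 CPM in chondrocyte-like cells, and no other class of at least 50 cells exceeded 0.668 CPM. Smaller stromal classes of MGJ2 held Osmr too. In 12 osteoblast-like cells 19 of 331345 UMIs were Osmr, and in 19 reticular stromal-like cells 14 of 211563. In 8 tenocyte-like cells 12 of 145385 UMIs were Osmr, and in 9 mural-like cells 9 of 126511. In MGJ, 7 reticular stromal-like cells held 7 in 140362. Osm and Osmr had their highest levels in different compartments of both libraries. The stromal over haematopoietic ratio was 0.0116 (0.00986–0.0136) and 0.0330 (0.0229–0.0462) for Osm, and 32.9 (26.6–41.2) and 270 (155–511) for Osmr. Only 13 Osmr UMIs were counted in the haematopoietic cells of MGJ2.

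Il6ra, the specific receptor of IL-6, was called lower in the stromal and vascular than in the haematopoietic cells of both libraries. In MGJ it was 38.5 CPM in mature neutrophil-like, 34.7 CPM in plasmacytoid dendritic cell-like, 29.3 CPM in monocyte-like and 24.7 CPM in macrophage-like cells, with 9.03 CPM in chondrocyte-like cells. In MGJ2 it was 223 CPM in mature neutrophil-like, 113 CPM in monocyte-like and 85.4 CPM in dendritic cell-like cells, with 21.3 CPM in chondrocyte-like cells. Mature neutrophil-like cells stood 1.98 times (1.81–2.16) above monocyte-like cells in MGJ2. In MGJ, the mature neutrophil-like level was not told apart from that of plasmacytoid dendritic cell-like (ratio 1.11; 0.824–1.52), dendritic cell-like (1.64; 0.946–3.11) and B cell-like cells (1.92; 0.997–4.23), whereas it was from that of monocyte-like cells (1.31; 1.11–1.55). Mature neutrophil-like cells came second in MGJ with Leiden resolution 0.5 and when every cell weighed equally. After thinning, 32.2% (29.2–35.3) of mature neutrophil-like cells in MGJ2 had an Il6ra UMI, against 3.12% (0.858–7.81) of chondrocyte-like cells, at median depths of 2178 and 27420 UMIs.

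Il11ra1, the specific receptor of IL-11, was 130 CPM in fibroblast-like cells, 57.8 CPM in tenocyte-like cells, 40.3 CPM in macrophage-like cells and 33.3 CPM in chondrocyte-like cells of MGJ. Among classes of at least 50 cells in MGJ2, chondrocyte-like cells led at 38.5 CPM, 2.37 times (1.61–3.57) above osteoclast-like cells at 16.3 CPM. They came second with Leiden resolution 0.5 and when every cell weighed equally. Smaller classes were not ranked. In MGJ2, 8 tenocyte-like cells held 14 Il11ra1 UMIs in 145385 UMIs and 24 macrophage-like cells 16 in 332251, against 143 in 3711089 in chondrocyte-like cells. No fibroblast-like cells were found there. The class with the highest Il11 level was thus not the class with the highest Il11ra1 level in MGJ, where fibroblast-like cells stood 2.24 times above the next class for the receptor. The values of Il11ra1 are uncertain, because parts of its transcripts also occur in the copies Il11ra2 and Gm13305. In 6 of its 8 transcripts this holds for 115 of the 410 windows of 91 bases at the 3′ end (28.0%), and in the other two for 58 (14.1%) and 207 (50.5%). The gene also overlaps Galt on the same strand.

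Lifr, the receptor subunit for leukemia inhibitory factor, was 87.2 CPM in osteoblast-like, 58.6 CPM in endothelial-like and 25.5 CPM in monocyte-like cells of MGJ, with 11.3 CPM in chondrocyte-like cells. Osteoblast-like cells stood 1.49 times (1.11–1.98) above endothelial-like cells, on 54 cells, and lost the first place when each cell was named by its highest marker score or when each library was clustered alone. In MGJ2 it was 115 CPM in endothelial-like, 43.9 CPM in monocyte-like and 29.4 CPM in chondrocyte-like cells. Endothelial-like cells held 2.63 times (1.93–3.51) the monocyte-like level, and came second with Leiden resolution 0.5 and when each cell was named by its highest marker score. In MGJ2, the 19 reticular stromal-like cells, led by Cxcl12, Adipoq and Lepr, were too few to rank. They held 179 (14.2%) of the 1261 Lifr UMIs, in 211563 UMIs of all genes. The 7 such cells in MGJ held 49 (2.82%) of 1737, in 140362 UMIs. By these counts their Lifr level lay above that of the leading ranked class in both libraries. In MGJ2, 12 osteoblast-like cells, also too few, held 75 (5.95%) in 331345 UMIs, and the 50 endothelial-like cells held 50 in 433205.

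Chondrocytes of the callus pass from an immature to a hypertrophic state before bone replaces cartilage, and the collagen Col10a1 marks the hypertrophic state. Chondrocyte-like cells were divided by their Col10a1 level into low (under 1000 CPM), moderate and high (at least 10000 CPM), which gave 1672, 337 and 472 cells in MGJ and 58, 29 and 46 in MGJ2. The moderate and high stages of MGJ2 thus held fewer than 50 cells each. Col10a1 itself chose the stages and lay at 153, 3905 and 31012 CPM in MGJ and at 190, 4417 and 46305 CPM in MGJ2. Within 25% of the 2 limits lay 70 and 73 cells in MGJ and 5 and 6 cells in MGJ2.

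Il11 and Lif were lower in the later stages of MGJ, which also hold other sub-clusters of cells, as given below. Il11 was 1224 CPM in the low, 791 CPM in the moderate and 384 CPM in the high stage, and Lif was 563, 334 and 141 CPM. The high over low ratio was 0.313 (0.303–0.324) for Il11 and 0.250 (0.236–0.264) for Lif, and both neighbouring steps went down for each gene: the moderate over low ratio was 0.646 (0.629–0.664) for Il11 and 0.594 (0.570–0.619) for Lif, and the high over moderate ratio was 0.485 (0.465–0.505) and 0.421 (0.394–0.449). Thinned shares went the same way, from 57.9% through 53.6% to 31.3% of cells for Il11 and from 41.7% through 37.7% to 16.2% for Lif, at median depths of 20430, 23717 and 20786 UMIs. In MGJ2, Il11 was 303, 409 and 275 CPM, with a high over low ratio of 0.907 (0.791–1.04), so that no fall from low to high was detectable there. Lif was 159, 52.3 and 70.6 CPM in MGJ2, a ratio of 0.444 (0.349–0.563), whereas after thinning a Lif UMI was found in 12.7% (5.27–24.5) of cells in the low stage and in 6 of 46 cells (4.94–26.3%) in the high stage.

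Il6ra went the other way. It was 6.73, 10.2 and 16.2 CPM in the low, moderate and high stages of MGJ, and the high over low ratio was 2.40 (1.95–2.95). In MGJ2 it was 11.0, 37.5 and 24.0 CPM, a ratio of 2.19 (1.19–4.17) on 17 and 34 UMIs. Osm, which like Il6ra was highest in myeloid classes, was 1.25, 0.647 and 0.927 CPM in MGJ, a ratio of 0.740 (0.317–1.54). The rise of Il6ra rests on few UMIs per cell: the thinned share was 1.39% in the low and 2.59% in the high stage of MGJ, with overlapping intervals (0.885–2.08 and 1.35–4.48).

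Between the high and low stages of MGJ, the remaining 7 members differed by less than 2-fold. Lifr was 9.76, 11.8 and 16.6 CPM (1.70; 1.40–2.06), Il6st was 73.4, 49.7 and 44.8 CPM (0.611; 0.550–0.676), and Osmr was 80.5, 57.5 and 50.1 CPM (0.622; 0.563–0.685). Il6 was 60.1, 28.6 and 35.2 CPM, lowest in the moderate stage, with a high over low ratio of 0.586 (0.521–0.657). Il11ra1 was 36.1, 25.4 and 29.7 CPM (0.821; 0.719–0.934), and Clcf1 and Osm had intervals that included 1. In MGJ2, Il6st (0.995; 0.764–1.30), Osmr (1.01; 0.747–1.37), Lifr (1.15; 0.719–1.84) and Il11ra1 (0.850; 0.573–1.25) had intervals that included 1, and Il6 was counted 6, 0 and 1 times in the 3 stages. Between the high and low stages, 1 of 10 members was called higher in MGJ (Il6ra), against 9.42% of all genes, and 2 were called lower (Il11 and Lif), against 13%. In MGJ2, where 7 members had the 20 UMIs needed, 1 was called higher (Il6ra), against 8.08%, and 1 lower (Lif), against 11.6%. The median ratio of the members was 0.678 and 0.995, beside a median log2 ratio of all genes of -0.04 and -0.06. Both MGJ2 calls were lost under some alternatives, which the closing section names.

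**Figure D3:**
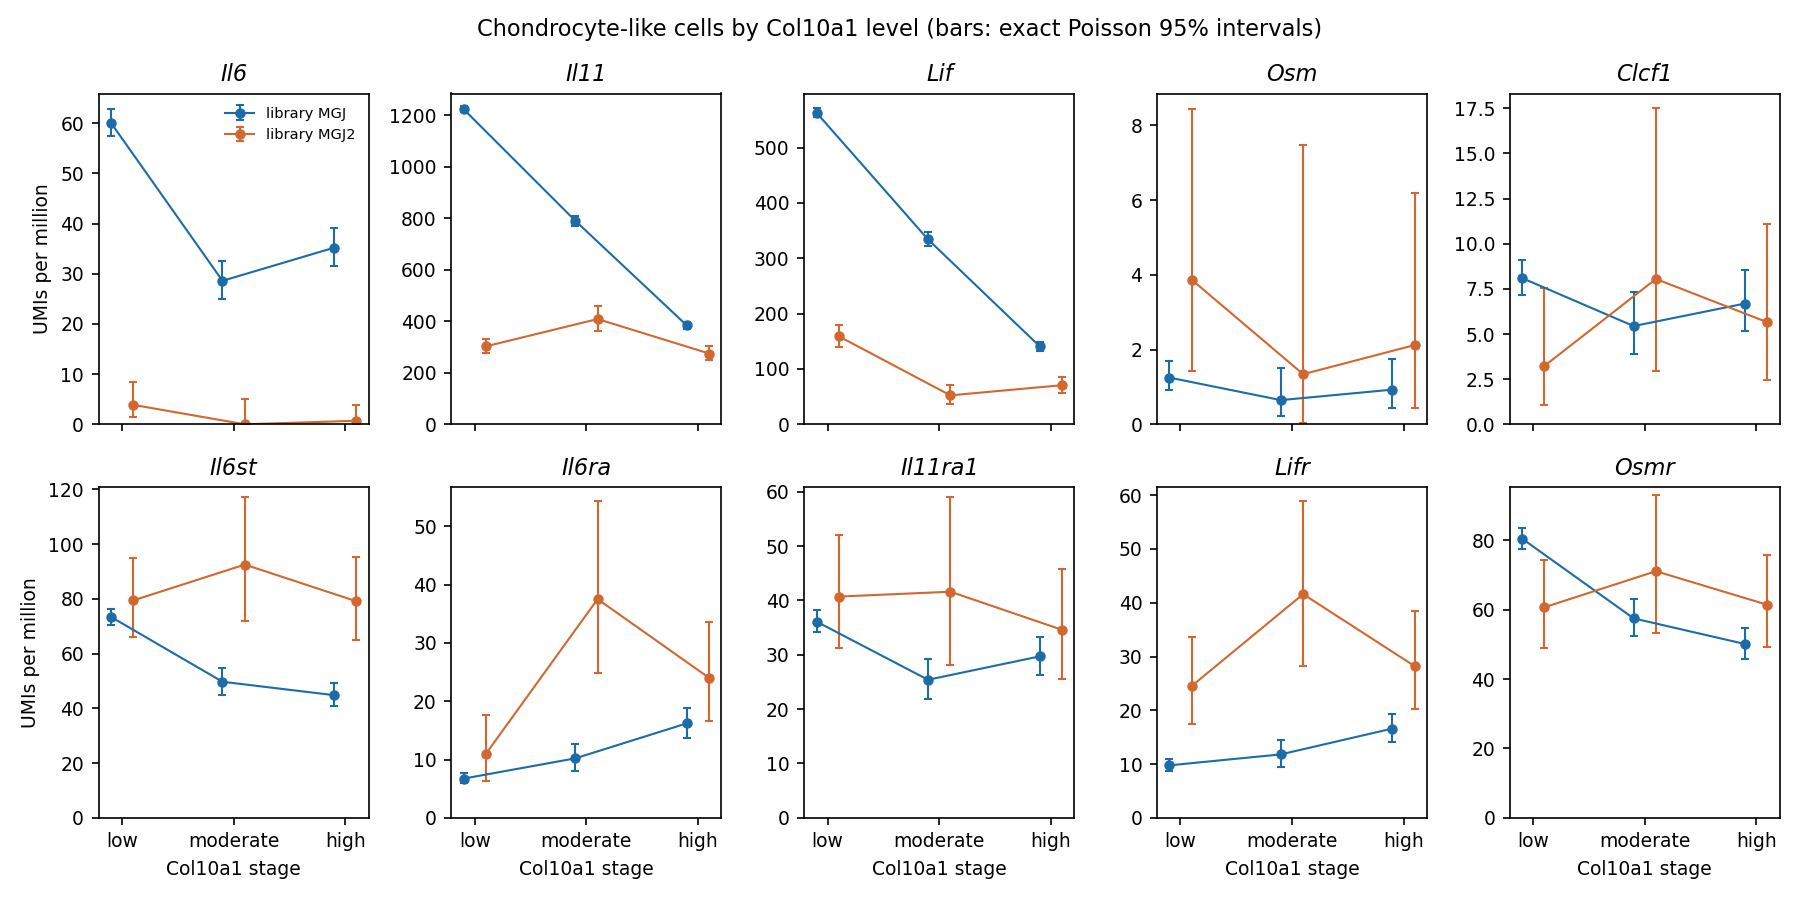
Level of the 10 members in the Col10a1-low, -moderate and -high stages of chondrocyte-like cells, 1 panel for each gene, in CPM with 95% counting intervals and 1 line for each library. Il11 and Lif fall from low to high in MGJ (1224 to 384 and 563 to 141 CPM), and Il6ra is higher in the high than in the low stage in both libraries (6.73 to 16.2 and 11.0 to 24.0 CPM).

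The chondrocyte-like cells were not uniform within a stage. Among the 13 sub-clusters of MGJ with at least 20 cells, Il11 ranged from 89.8 CPM in sub-cluster 7 (led by Kctd14, Slc40a1 and Runx1t1, 183 cells) to 1938 CPM in sub-cluster 5 (led by Penk, Ptgs2os2 and Prg4, 215 cells), with a median of 1045 CPM. Lif ranged from 52.1 CPM in sub-cluster 7 to 1124 CPM in sub-cluster 9, with a median of 364 CPM. Sub-cluster 9 held 176 cells, all in MGJ, and was led by Ccl2, Ccl7, Nos2 and Il6. Its Il6 level of 173 CPM was the highest of the 13, where the median was 40.1 CPM and the lowest 3.33 CPM in sub-cluster 7, but Il6 is among the genes that lead it, so this is a description. The same sub-cluster had the lowest Il6ra level, 3.85 CPM, and sub-cluster 2 the highest, 17.6 CPM.

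The high stage was made mostly of sub-cluster 2 (led by Pla2g10) and sub-cluster 3 (led by Pank1), which were 45.8% and 33.5% of its cells in MGJ, against 0.598% and 0.239% of the low stage. Sub-clusters 0, 5 and 9 made up 19.6%, 12.9% and 10.2% of the low stage in MGJ and 0.212%, 0% and 0% of the high stage. A difference between stages and one between sub-clusters therefore cannot be told apart in these values. Sub-clusters 2 and 3 were low in both ligands, with Il11 at 324 and 269 CPM and Lif at 114 and 101 CPM. They differed in Il6, at 10.5 and 93.0 CPM. In MGJ2, sub-cluster 3 alone made up 87.0% of the high stage, with Il11 at 237 CPM and Lif at 59.2 CPM. Sub-cluster 7, low in all 3 ligands in MGJ, was 10.6% of the low stage in MGJ (177 of 1672 cells) and 29.3% in MGJ2 (17 of 58). Its 20 cells in MGJ2 had Il11 at 59.9 CPM but Lif at 232 CPM, above the 59.2 CPM of sub-cluster 3. Without sub-cluster 7, the high over low ratio of Il11 was 0.292 in MGJ and 0.700 in MGJ2, that of Lif was 0.233 and 0.522, and that of Il6ra was 1.74 in MGJ2. Without sub-cluster 9, the Il6 level of the low stage in MGJ was 44.8 CPM and its high over low ratio 0.787, while the ratios of Il11 and Lif were 0.326 and 0.289.

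**Figure D4:**
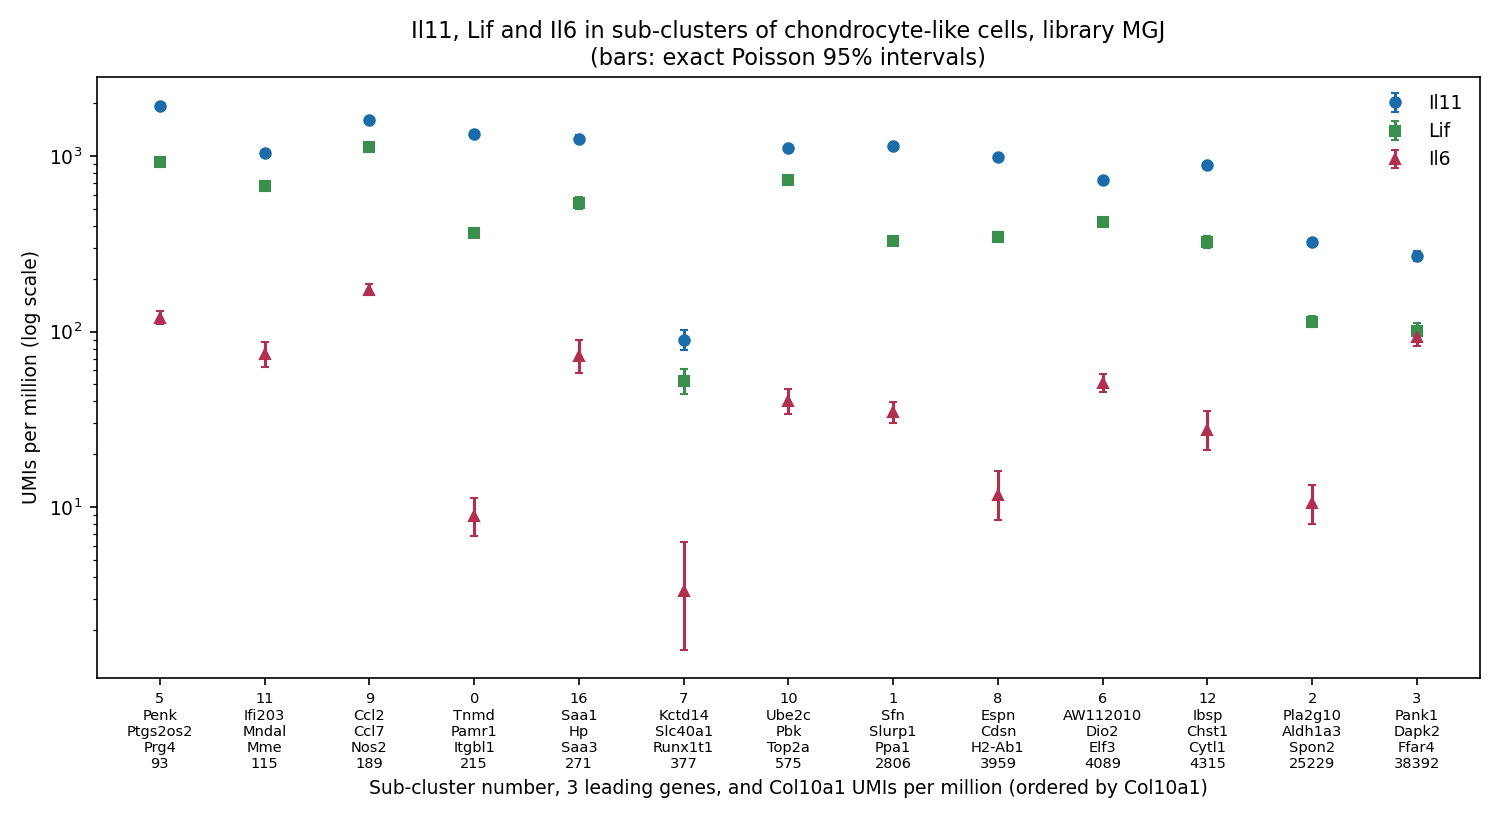
Level of Il11, Lif and Il6, in CPM on a log axis with 95% counting intervals, in the 13 chondrocyte-like sub-clusters of at least 20 cells in MGJ, ordered by their Col10a1 level. Sub-clusters 2 and 3, at 25229 and 38392 CPM of Col10a1, have Il11 at 324 and 269 CPM, while sub-cluster 7 is lowest in all 3 ligands.

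The other genes of the pathway were taken as 31 listed genes apart from the near copies of Il11ra1. Of the 30 tested between compartments in MGJ, 6 were called higher in stromal and vascular cells and 11 lower, against 36.0% and 18.9% of all genes, with a median ratio of 0.582. Of the 27 tested in MGJ2, 3 were higher and 16 lower, against 25.6% and 26.5% of all genes, with a median of 0.457. Cntfr, the receptor that Clcf1 uses, was called higher in MGJ and had too few UMIs in MGJ2.

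None of the 8 kinases, phosphatase and STATs was called higher in stromal and vascular cells in either library. Stat3, the main transcription factor of the family, was 119 against 119 CPM in MGJ (interval of the ratio 0.968–1.04) and 167 against 343 CPM in MGJ2 (0.488). Of the 12 feedback inhibitors and targets, 3 were higher and 5 lower in MGJ, and 2 higher and 5 lower in MGJ2. Socs2, a feedback inhibitor of cytokine receptors, and Timp1, an inhibitor of matrix metalloproteinases, were called higher in both libraries. Socs2 was 95.4 against 7.05 CPM in MGJ and 131 against 11.5 CPM in MGJ2, and Timp1 was 1695 against 89.0 CPM and 690 against 10.1 CPM. Socs3, the feedback inhibitor of gp130, was 119 against 202 CPM (0.590; 0.573–0.608) in MGJ and 122 against 136 CPM (0.899) in MGJ2. Adam17, a protease that sheds Il6ra, was called lower in both libraries, with ratios of 0.375 and 0.451.

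Between the chondrocyte stages, 3 of the 27 pathway genes tested in MGJ were called higher in the high stage (Tyk2, Socs2 and Cebpd) and 3 lower, Cntf and Socs1 among them, with a median ratio of 1.06. These counts are near those of all genes, of which 9.42% were higher and 13% lower. In MGJ2, 5 of 20 were higher (Socs2, Cebpb, Cebpd, Pim1 and Adam10) and 2 lower, Pias3 among them, against 8.08% and 11.6% of all genes, with a median of 1.24. Socs2 and Cebpd were called higher in both libraries. Socs2 had ratios of 2.15 and 2.83 and the transcription factor Cebpd of 2.48 and 2.29. Stat3 (0.966 and 1.12) and Socs3 (1.24 and 0.727) were not called in either library.

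The genes whose levels over the 33 profiles of library and class were most like each member's were named by Pearson's r on log2(CPM + 10) among 10090 genes. The classes of a library share their free RNA and depth, so r is a description. Il11 was closest to Mir100hg (0.951), Peg3 (0.946) and the collagen lysyl hydroxylase Plod2 (0.945), and Lif to Errfi1 (0.861), P4ha1 (0.849) and Slc39a14 (0.840). Osm was closest to Emilin2 (0.958), Ccl6 (0.924) and Lilrb4a (0.920). Osmr was closest to Tead1 (0.986), Fermt2 (0.985) and Parva (0.979), and Il11ra1 to Gaa (0.918), Ptgfrn (0.883) and Clmp (0.871). The other members had lower values: the closest gene was Il6st's Pros1 (0.859), Il6ra's Icosl (0.843), Lifr's Zfyve9 (0.841), Clcf1's Slc25a30 (0.818) and Il6's Procr (0.765).

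Among the genes themselves, Osm (chr11:4236420-4241026, plus strand) and Lif (chr11:4257557-4272514, plus strand) are neighbours, as are Osmr (chr15:6813577-6874969, minus strand) and Lifr (chr15:7090614-7197489, plus strand), in GRCm38 with GENCODE M21 annotation. Among classes of at least 50 cells in MGJ, the neighbours of each pair did not share a leading class. Lif was highest in chondrocyte-like and Osm in mature neutrophil-like cells, and Lifr was highest in osteoblast-like and Osmr in mural-like cells. Among classes of at least 50 cells in MGJ2, monocyte-like cells led for both Lif and Osm, and endothelial-like cells for both Lifr and Osmr. The smaller classes given above for Lifr and Osmr were not ranked.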

How the data were processed

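Single-cell RNA-seq was performed on callus cells of 2 libraries, and the authors deposited UMI counts per gene and barcode as matrices. Cell Ranger 4.0.0 is the software version that the headers of these files give. The submitters' processing notes name the build GRCm38 and the tools Cell Ranger and Seurat. The matrices hold raw counts, with no normalization. In both, the lowest barcodes had 501 and 500 UMIs.

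Barcodes with at least 200 genes and at most 20% mitochondrial UMIs were kept (13460 in MGJ and 7806 in MGJ2), and 513 and 238 doublets called by Scrublet were removed at a fixed score limit of 0.25, since its own threshold of 0.764 called 0 in MGJ. These calls were 3.81% and 3.05% of the barcodes, below the 10.8% and 6.24% expected for their number, so doublets can remain among the cells. Cells of both libraries were clustered together with scanpy 1.11.5 and leidenalg 0.10.2 (Python 3.11.15) on 2000 variable genes, 30 components and 15 neighbours at resolution 1, with the members and the pathway genes kept out, and named by 26 marker lists. A cluster or sub-cluster stayed unnamed where markers of other cells led it, where too few of a class's markers were detected or where its depth was low: 394 cells in MGJ and 185 in MGJ2. Classes with fewer than 50 cells have no levels of their own.

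Levels are summed UMIs per 1000000 with exact Poisson 95% intervals, and ratios have exact conditional binomial intervals (scipy 1.17.1). Genes with at least 20 UMIs in the cells compared were tested against 2-fold limits. Shares of cells with a UMI were computed over cells of at least 2000 UMIs, each thinned to 2000 UMIs, with exact Clopper-Pearson intervals. Cells under this depth were left out of the shares. Intervals cover counting error only: cells are not replicates, the labels put neither library in a group, and no p-value was computed. The procedure was checked on simulated counts. The named genes are the members, the pathway lists, the markers and the 3 genes most like each member. Promoters were taken from RefSeq (GRCm38.p6) and gene positions from GENCODE M21.

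Alternatives were other clustering resolutions, naming and weighting of cells, doublet and mitochondrial limits, Col10a1 limits, thinning depth and gene minimum, and, chosen after seeing the data, leaving out 2 sub-clusters. Some genes of the pathway lists are not reported here by name. The members and lists were chosen with earlier results of these data known.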

Additional observations from a re-analysis of the deposited data

Results flagged for a closer look

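Barcodes that were removed from the analysis still held UMIs of the 10 members, which were summed as a check on data outside the comparisons. Most of the UMIs of these barcodes came from the 513 and 238 called doublets. In MGJ the 1348 removed barcodes had 9112 UMIs of the members in 9747501 UMIs, a level of 935 CPM, against 1065 CPM in the kept cells. In MGJ2 the 441 removed barcodes had 1684 in 3328323 UMIs, a level of 506 CPM, against 465 CPM. Both lie above the 0.308 and 0.901 CPM that 3 counts would give. By gene, the removed barcodes of MGJ had Il11 at 374 CPM, Lif at 184 CPM and Il6 at 113 CPM, and those of MGJ2 had Osm at 249 CPM and Il6ra at 83.5 CPM.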

How the results depend on the processing

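Of 80 recomputed counts of called members, 66 stayed within 1.5 times the reported count, and of 540 recomputed ratios of single members, 397 moved by no more than their counting interval, 139 moved beyond it with the same direction and 4 reversed. The leading class kept its place in 118 of 135 recomputed orders. Of 20 recomputed shares of cells with a UMI, 14 moved, and of 8 recomputed percentages of all genes called, 4 moved. With a gene minimum of 1 UMI, all genes called higher in the Col10a1-high stage rose from 9.42% to 15.4% in MGJ. In MGJ2 they rose from 8.08% to 19.0%. The other percentages of all genes rose too. The count of members lower in the stromal and vascular cells of MGJ was 1 when every class weighed equally. In MGJ2, the count of members higher in the Col10a1-high stage was 0 with Leiden resolution 0.5 or 2, with doublets kept, with at most 10% mitochondrial UMIs, with each library clustered alone, with every cell weighing equally, with Col10a1 limits of 2000 and 20000, with the set-aside chondrocyte sub-clusters kept, and without sub-cluster 7. The count of lower members there was 0 with each cell named by its highest marker score, with each library clustered alone, with those sub-clusters kept and without sub-cluster 7. The cause was not tested. The ratio of Il6 between compartments of MGJ2 reversed to 1.46 when every cell weighed equally. The chondrocyte-like over other cells ratio reversed to 1.54 for Il11ra1 and 1.15 for Lifr in MGJ when every cell weighed equally, and to 0.873 for Lifr in MGJ2 when each cell was named by its highest marker score. Over all alternatives, the stage ratio of Il11 in MGJ ranged from 0.269 to 0.334 and that of Lif from 0.199 to 0.289, while Il6ra in MGJ2 ranged from 1.30 to 2.85. No paired analysis was possible because the labels put neither library in a group. Each library stands alone, so no error between animals could be measured, and the 133 chondrocyte-like cells of MGJ2 limit its stage values.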

Other observations

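Cells that stayed unnamed had Il11 at 952 CPM and Lif at 365 CPM in the 394 such cells of MGJ, and at 222 and 174 CPM in the 185 such cells of MGJ2. They are a mix that differs between the libraries. All but 14 of those of MGJ came from sub-clusters of chondrocyte-rich clusters, whereas 158 of those of MGJ2 were in 1 cluster led by Cd300e, Ear2 and Lilra5, with too few markers of any class. Their Osm levels were 17.2 CPM in MGJ and 193 CPM in MGJ2.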
